A study of Rattus norvegicus with 6 samples.

Results

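The 8 genes described here encode calcineurin and the proteins that regulate it. They are Ppp3ca, Ppp3cb and Ppp3cc, the catalytic A subunits, Ppp3r1, the regulatory B subunit, and the regulators Rcan1, Rcan2, Fkbp1a and Cabin1. Every probe set whose platform annotation names exactly 1 of these symbols was taken, which gave 18 of the 31042 probe sets on the array, for 8 of 14217 genes with a symbol. A probe set is a group of short oligonucleotides that together measure 1 transcript, and a gene can have several.

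Calcineurin is the protein phosphatase that calcium and calmodulin switch on, and it is abundant in neurons. A catalytic A subunit binds calmodulin, a small calcium-binding B subunit completes the enzyme, and the active phosphatase strips phosphate from NFAT transcription factors, which then enter the nucleus, and from proteins of synaptic vesicle recycling and of the cell death machinery such as BAD. In the retina it has been studied as a link between raised calcium and the death of ganglion cells, which send the eye's output to the brain through the optic nerve.

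RNA came from retinal ganglion cells of 3 adult male Brown Norway rats, an inbred pigmented strain with no transgene or deletion named in the labels. In each rat hypertonic saline was injected into an episcleral vein of 1 eye, which raised the intraocular pressure for 10 days, and the other eye was the control. All eyes had cells traced with Fluorogold from the superior colliculus, and laser capture then took 2000 cells from each eye. In both groups the capture was thus aimed at cells that carried the tracer. Markers of other retinal cells gave signal too, as described below. Each eye gave 1 array, 3 from right eyes (OD) and 3 from left eyes (OS), but the labels do not say which eye had raised pressure. The comparison below is therefore left against right within a rat, with no direction relative to pressure, and an effect of pressure would partly cancel if the treated side varied. The 3 animals are separate, and 3 arrays per eye limit the precision.

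Values are intensities on a linear scale that were already brought to a common trimmed mean. As a limit for signal over background, the 95th percentile of 27 control probe sets for bacterial RNAs was used, which lay between 261 and 591 across arrays and was highest on the arrays of rat 2. Between 34.8% and 58.1% of probe sets exceeded it. Of 13 measured ganglion cell marker genes, 7 exceeded it on all 6 arrays and none was at or below it on every array. Markers of other retinal cells also exceeded it on all 6 arrays, 4 of 9 for amacrine cells, 4 of 13 for photoreceptors, 2 of 5 for bipolar cells, 3 of 9 for glia, 1 of 8 for pigment epithelium, 1 of 4 for endothelium and 0 of 10 for microglia. The summed intensity of the ganglion cell markers was 23315 to 33393 in OD and 14531 to 19084 in OS, lower in OS in 3 of 3 rats. The eyes of rat 3 were the most alike: their deviations from the eye means correlated at 0.326 across tested probe sets. Within rats 1 and 2 the values were 0.109 and 0.122. With the other eye of rats 1 and 2, the arrays of rat 3 correlated at -0.164 to -0.197. Deviations within an eye cancel over its 3 rats, so these negative values follow from the centring and are no separate result. In captured cells, less RNA per cell and fewer cells of a type cannot be told apart.

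Across the 18 probe sets, the eyes did not differ in a common direction. The largest difference was that of a probe set of Ppp3cb, 1379314_at, with signal above background in every OD eye and in no OS eye, and it too missed the threshold after adjustment over all probe sets. Ppp3ca, the other main neuronal catalytic subunit, Fkbp1a and Cabin1 had signal above background on all 6 arrays and mean differences under 0.3 on the log2 scale for the probe sets that had it. Differences here are OS minus OD within a rat, of log2(intensity + 16), an offset that understates the change of dim probe sets.

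Of the 18 probe sets, 11 were bright enough to be tested, with a mean log2 value at or above the median of all probe sets, and none of the 11 passed the threshold of 0.05 in limma after Benjamini-Hochberg adjustment over the 15521 probe sets tested. Over all tested probe sets 2 passed, or 0.0129%. At an unadjusted limma p under 0.05, 1 of the 11 (Ppp3cb 1379314_at) was lower in OS, against 4.31% of all tested, and 0 were higher, against 2.6%. That 1 probe set was bright enough only through OD, where it was high, so its call is no independent result. The test could miss much. On simulated data of the same 15521 probe sets, differences between OS and OD of 2-fold were called in 0.5% of cases. Those of 4-fold were called in 18.5%, those of 8-fold in 49.6% and those of 16-fold in 73.3%. Each run changed 50 probe sets at each of these folds, and many true changes make the adjusted threshold easier to pass. Only 2 probe sets passed in the measured data, so these rates may overstate what the test could call there.

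**Figure D1:**
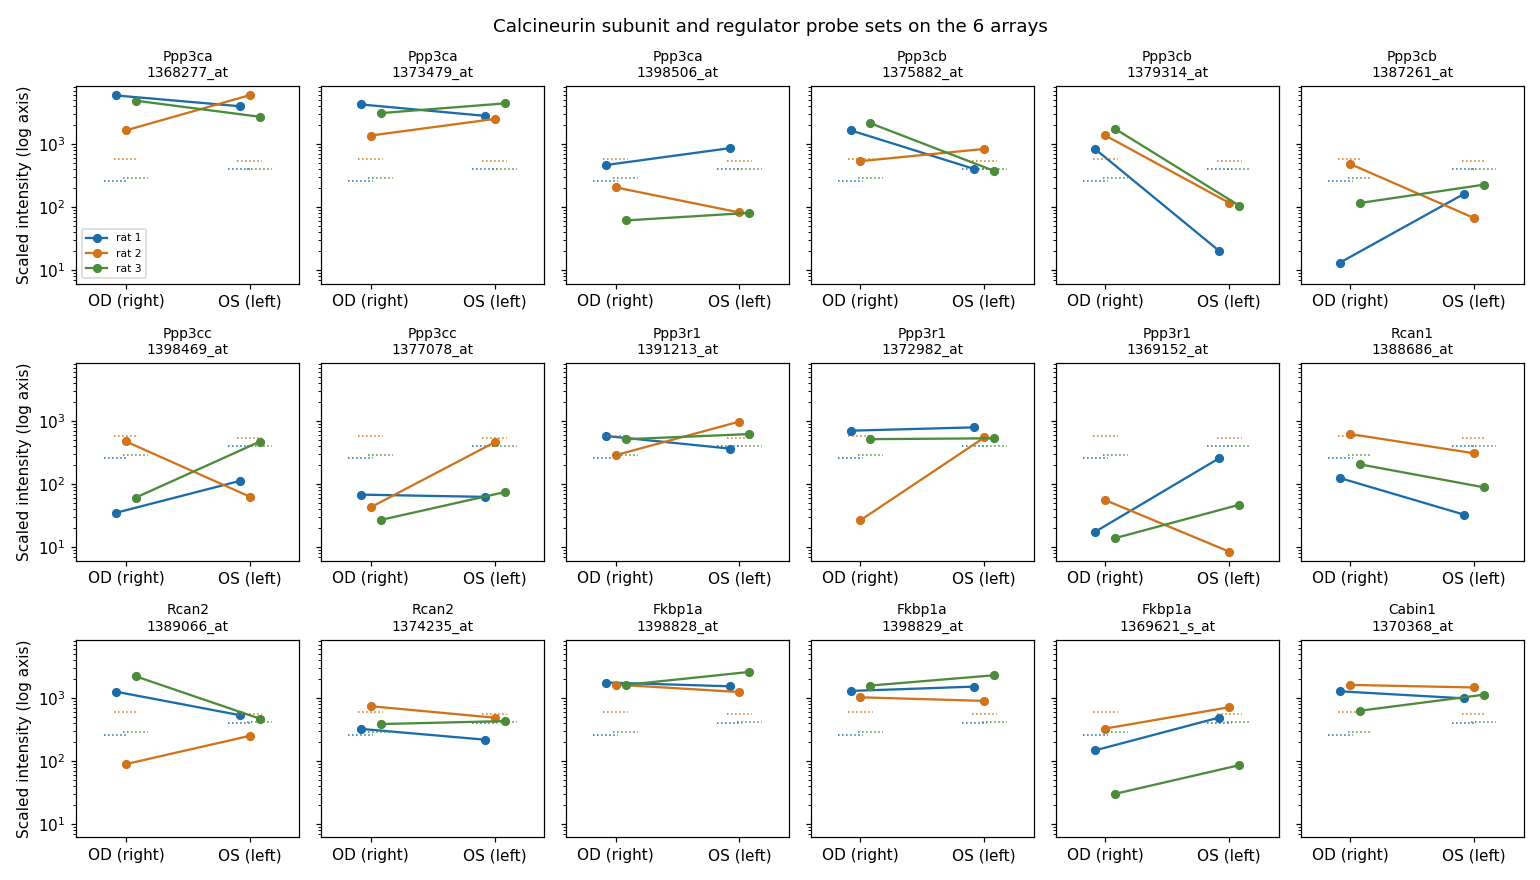
Scaled intensity (log axis) of the 18 probe sets in the right (OD) and left (OS) eye, with a line joining the eyes of each rat and dotted marks at each array's background limit. On Ppp3cb 1379314_at all 3 lines run from above the limit in OD to below it in OS, while on Ppp3ca 1368277_at rat 2 runs against rats 1 and 3.

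Ppp3ca encodes the alpha form of the catalytic subunit, a major form in brain neurons. On 1368277_at, designed from a RefSeq mRNA, its intensity was 5960, 1663 and 4916 in OD of rats 1 to 3 and 4013, 6021 and 2731 in OS. All 6 values were above the limit, the OD eye of rat 2 was the lowest, and the groups overlapped. The mean difference was 0.14 ± 1.48 (SD, n = 3 rats, limma adjusted p = 0.964), with a 95% interval of the limma fit from -0.87 to 1.16.

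The second bright probe set of Ppp3ca, 1373479_at, gave 4286, 1377 and 3123 in OD and 2827, 2524 and 4453 in OS. It differed by 0.26 ± 0.76 (SD, n = 3 rats, limma adjusted p = 0.926), with an interval from -0.67 to 1.19. The OD eye of rat 2 was again the lowest of the 6, and the 2 probe sets went the same way in rats 1 and 2 and apart in rat 3. The third, 1398506_at, exceeded the limit on 2 of 6 arrays, both of rat 1 (468 in OD and 867 in OS), lay between 61.8 and 207 on the others and was not tested. Without rat 2 the means of the bright probe sets turned to -0.71 and -0.04.

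Ppp3cb encodes the beta form of the catalytic subunit. On 1379314_at its intensity was 835, 1381 and 1756 in OD of rats 1 to 3 and 20.3, 118 and 107 in OS. Every OD value was above its array's limit, every OS value was below it, and the groups did not overlap. The fitted difference was -3.93 ± 0.59 (SD, n = 3 rats), lower in OS in 3 of 3 rats, with an unadjusted limma p of 0.00094 and an adjusted p of 0.285. Its mean log2 value was 10.3 in OD and 6.39 in OS, against a brightness filter of 8.12, so it was tested only through the eye in which it was high, and a probe set of this kind had to differ. Because the OS signal was below background, only a bound can be given: OD was at least 2.77-fold higher, taking the group means of log2 values with each OS array set at its limit. Leaving out rat 3 put the fitted difference at -3.97, and leaving out rat 2 or rat 1 put it at -4.20 or -3.62. These sizes too rest on OS values below background. With 3 of 3 rats lower, leaving out 1 could not change the direction.

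Tested probe sets with all OD values above and all OS values at or below the limit, lower in 3 of 3 rats, numbered 182, or 1.17%, and 7 probe sets with that split, 1379314_at among them, had a bound at least as high. Over all 31042 probe sets, every OS array was below every OD array in 4.66%, and among the 18 members on Ppp3cb 1379314_at only. The reverse, every OS array above every OD array, held for 5.36% of all probe sets and 0 members.

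The other probe sets of Ppp3cb did not share this pattern in all rats. On 1375882_at the intensity was 1668, 540 and 2159 in OD and 405, 844 and 378 in OS, lower in OS in rats 1 and 3 and higher in rat 2. Its difference was -1.28 ± 1.67 (SD, n = 3 rats, limma adjusted p = 0.744), with an interval from -2.71 to 0.15, and the groups overlapped. The probe set designed from the gene's RefSeq mRNA, 1387261_at, lay at or below the limit on all 6 arrays, between 13.3 and 487, and carries no fold.

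Beside the Ppp3cb values stand measures of the arrays themselves. The log2 ratio of the 3′ to the 5′ beta-actin control was higher in OS by 1.79, 0.76 and 1.42 in rats 1 to 3, a mean of 1.32 ± 0.52 (SD, n = 3 rats), and that of Gapdh differed by -0.46 ± 1.86 (SD, n = 3 rats). The ganglion cell marker sum was lower in OS in the same 3 rats, as were the sums of the amacrine markers (26798 to 72463 in OD, 11549 to 23719 in OS) and the pigment epithelium markers (8419 to 43262 in OD, 2911 to 7375 in OS). The mean was lower in OS for 10 of 13 ganglion cell, 8 of 9 amacrine and 7 of 8 pigment epithelium markers, and the amacrine markers Chat and Tfap2a lay at or below the limit on every array. The other marker sums did not share this: those of photoreceptors, bipolar cells, glia and microglia were each lower in OS in 1 of 3 rats. That of endothelium was lower in 2 of 3. The median differences of the photoreceptor, bipolar, glia and microglia markers were 0.44, 0.24, 0.11 and 0.43. The part of these measures in the Ppp3cb difference was not tested.

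Ppp3cc encodes the gamma form of the catalytic subunit, best known from testis. Its probe sets 1398469_at and 1377078_at exceeded the limit on 1 of 6 and 0 of 6 arrays. The single value above the limit was 472, in OS of rat 3. No level or difference between eyes was detectable for it.

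**Figure D2:**
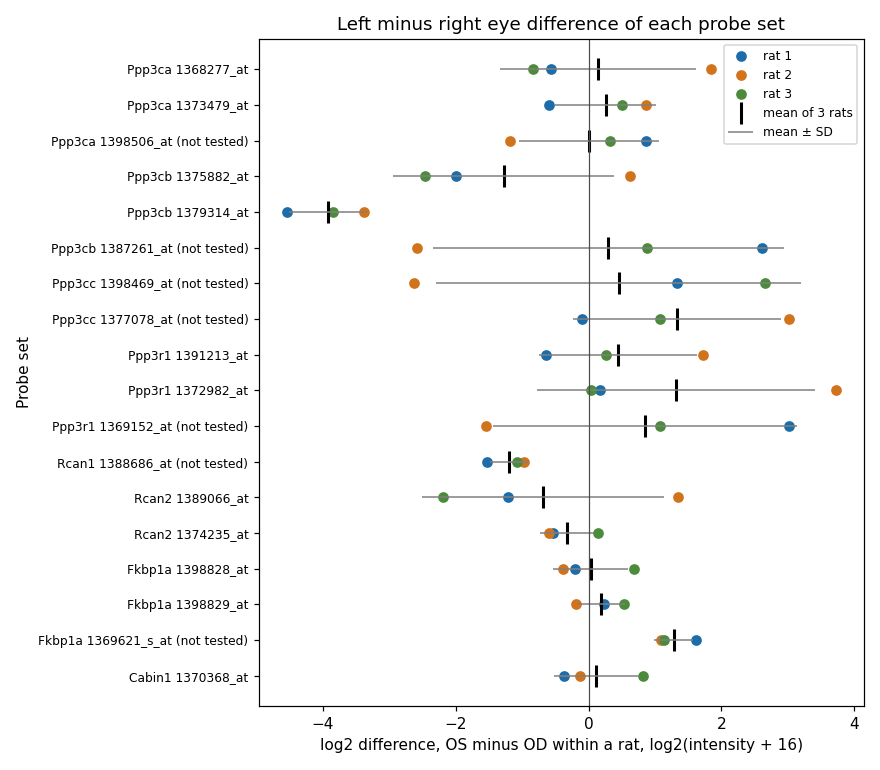
Difference between left and right eye, OS minus OD of log2(intensity + 16), for each of the 18 probe sets, with 1 point per rat, a bar at the mean and a line for the SD over 3 rats. Ppp3cb 1379314_at lies apart at -3.93, Ppp3r1 1372982_at rests on rat 2 alone, and most other means lie within 1 SD of 0.

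Ppp3r1 encodes the regulatory B subunit, an EF-hand protein that every form of the enzyme needs. On 1372982_at its intensity was 704, 26.7 and 517 in OD of rats 1 to 3 and 796, 550 and 534 in OS. In 3 of 3 rats OS was the higher eye, by 0.17, 3.73 and 0.04 on the log2 scale, so the mean of 1.32 ± 2.09 (SD, n = 3 rats, limma adjusted p = 0.811) came almost entirely from the OD eye of rat 2, which was below the limit. Without rat 2 the mean was 0.11. The probe set passed the brightness filter only through OS, with mean log2 values of 9.30 there and 7.99 in OD.

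On 1391213_at, the brighter probe set of Ppp3r1, OD gave 581, 288 and 516 and OS gave 366, 985 and 622. The OD eye of rat 2 was again the lowest, the groups overlapped, and the difference was 0.45 ± 1.19 (SD, n = 3 rats, limma adjusted p = 0.928). It turned to -0.19 without rat 2 and was 0.99 without rat 1. The RefSeq mRNA probe set 1369152_at lay at or below the limit on all 6 arrays, at 8.5 to 258. Thus in rat 2 the bright probe sets of the catalytic alpha subunit and of the B subunit were all lower in OD than in OS, while in rats 1 and 3 their directions were mixed.

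The regulators of calcineurin, the RCAN proteins, bind the catalytic subunit and inhibit it at high levels. Rcan1 is itself a target of NFAT, through a promoter inside the gene, so it is often read as a sign of calcineurin activity. The 250 bases before its RefSeq start site (GRCr8, chr11:45118237-45118486, minus strand) are shown because Rcan1 closes this feedback loop. Whether this start site is that of the promoter inside the gene was not determined. Capitals mark the NFAT core GGAAA on either strand, printed as TTTCC on the reverse.
Rcan1: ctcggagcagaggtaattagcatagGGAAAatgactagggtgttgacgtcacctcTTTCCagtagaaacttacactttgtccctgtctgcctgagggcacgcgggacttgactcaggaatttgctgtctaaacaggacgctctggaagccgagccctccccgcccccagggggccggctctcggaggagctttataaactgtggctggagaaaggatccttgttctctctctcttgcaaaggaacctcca
The window held 2 matches. A match was present in 4 of the 7 members with a RefSeq entry (Ppp3cb, Ppp3r1, Rcan1 and Fkbp1a), and Ppp3cc had no entry. Of all 33469 windows of this length, 56.9% held a match and 22.9% held 2 or more. A match is a string of letters and not a measured binding site.

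Rcan1 was measured by 1388686_at, at 125, 624 and 206 in OD of rats 1 to 3 and 32.8, 309 and 89.0 in OS. The OS reading was the lower in 3 of 3 rats, but only the OD eye of rat 2 exceeded the limit. The probe set was below the brightness filter and untested, and no size of the difference can be given. The readings of rat 2 were the highest in each eye, and its OS reading was above the OD readings of rats 1 and 3. The background limits of rat 2 were also the highest, 591 in OD and 547 in OS, and its OS reading was below the latter. No difference between rats can thus be read from these values.

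Rcan2, the family member expressed widely in brain, had 2 tested probe sets that went the same way only in rat 1. On 1389066_at the intensity was 1257, 89.1 and 2199 in OD and 533, 251 and 470 in OS, lower in OS in rats 1 and 3 and higher in rat 2. It differed by -0.69 ± 1.82 (SD, n = 3 rats; adjusted p = 0.884 by limma), which turned to 0.07 without rat 3, and in rat 2 neither eye exceeded the limit. On 1374235_at OD gave 323, 740 and 385 and OS gave 218, 486 and 429, above the limit on 3 of 3 OD and 1 of 3 OS arrays, which put the mean at -0.33 ± 0.41 (SD over 3 rats, limma adjusted p = 0.954).

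Fkbp1a encodes FKBP12, the immunophilin that inhibits calcineurin when it is bound by the drug FK506. Its probe set 1398828_at gave 1757, 1629 and 1610 in OD and 1531, 1241 and 2588 in OS, all above the limit. The difference was 0.03 ± 0.57 (SD, n = 3 rats, limma adjusted p = 0.992), with an interval from -0.99 to 1.05. On 1398829_at OD gave 1291, 1024 and 1572 and OS gave 1514, 898 and 2291, which put the mean at 0.19 ± 0.36 (SD over 3 rats, limma adjusted p = 0.954). On both, the OS eye of rat 3 was the highest of the 6 values, and without rat 3 the mean of 1398828_at was -0.29.

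The remaining Fkbp1a probe set, 1369621_s_at, was higher in the OS eye of all 3 rats, with a mean of 1.28 ± 0.30 (SD, n = 3 rats). It gave 148, 327 and 30.1 in OD and 489, 712 and 85.5 in OS, above the limit on 0 of 3 OD and 2 of 3 OS arrays. It was below the brightness filter and untested, and the bright probe sets of the gene did not show this difference.

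Cabin1 encodes a nuclear protein that binds calcineurin and blocks it. Its probe set 1370368_at gave 1274, 1610 and 627 in OD and 985, 1467 and 1125 in OS, all above the limit. It was lower in OS in rats 1 and 2 and higher in rat 3, which put the mean at 0.11 ± 0.63 (SD over 3 rats, limma adjusted p = 0.978), with an interval from -1.04 to 1.26. Without rat 3 the mean was -0.25.

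Across the family, signal lay above the limit on all 6 arrays for 5 of 18 probe sets, against 11.3% of all probe sets, and 3 did so on none, against 14.8%. A lower mean in OS was found for 5 members and a higher mean for 13, while 48.0% of all probe sets had a lower mean. The median difference over the 18 was 0.17, beside 0.05 over all probe sets. By rat the members' medians were -0.28, -0.16 and 0.42, so the sign of the pooled median was that of rat 3 and opposite to that of rats 1 and 2.

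Lower in OS in 3 of 3 rats were 2 members, Ppp3cb 1379314_at and Rcan1 1388686_at, against 12.2% of all probe sets. Higher in 3 of 3 were also 2, Ppp3r1 1372982_at and Fkbp1a 1369621_s_at, against 14.9%. The shares of both directions are near the background. In 8 of 18 members rat 2 went opposite to both other rats, against 26.1% of all probe sets, a difference that was not tested. Rat 1 was the odd animal in 3 members and rat 3 in 3, against 23.1% and 23.7%. The SD between rats exceeded the mean difference in 15 of 18 members and in 76.2% of all probe sets.

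**Figure D3:**
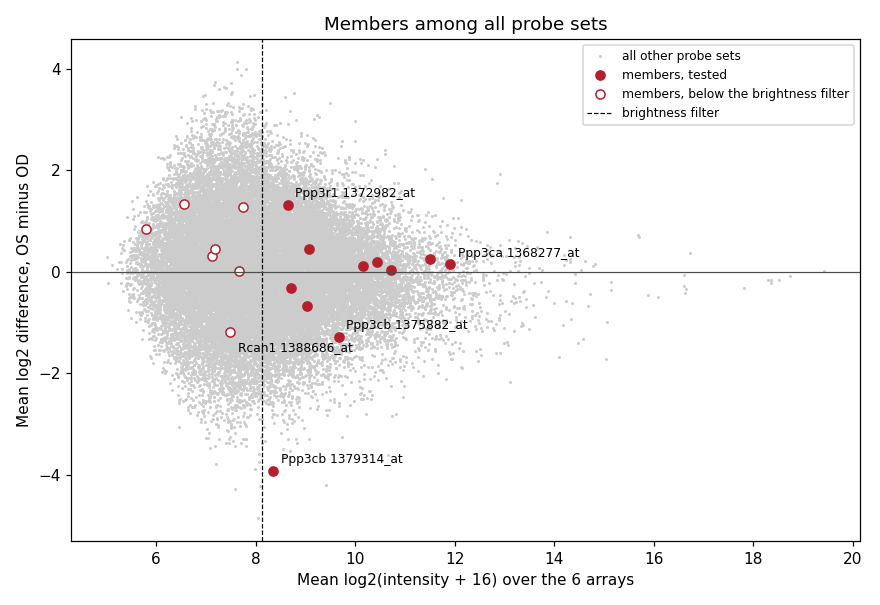
Mean difference between eyes (OS minus OD, log2) against mean log2(intensity + 16) over the 6 arrays for all probe sets (grey) and the 18 members (red, open where below the brightness filter marked by the dashed line). The members lie within the cloud except Ppp3cb 1379314_at, at -3.93 and close to the filter.

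Probe sets of 1 gene can be set against each other only in direction. The members gave 5 pairs of tested probe sets of the same gene, 1 each for Ppp3ca, Ppp3cb, Ppp3r1, Rcan2 and Fkbp1a, and in 0 of the 5 did both go the same way in 3 of 3 rats. They did so in 2 of 3 rats for 4 pairs and in 1 of 3 for Rcan2. Over all 2242 such pairs on the array, 13.1% went the same way in all 3 rats, and 51.0% of pairs did so in a given rat, so the direction seen by 1 probe set was in general not shared by another of the same gene.

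The wider pathway was taken in 3 lists of genes that act with or after calcineurin. In none did a probe set pass limma's test after adjustment, in either direction. The NFAT factors and the kinases that export them had 25 probe sets for 11 of 11 genes, 17 of them tested, with a median difference of 0.33. The other binders and regulators had 27 probe sets for 19 of 24 genes, 15 tested, with a median of 0.22. The substrates had 40 probe sets for 21 of 22 genes, 28 tested, with a median of -0.17. Unadjusted limma p was under 0.05 for 1 probe set lower in OS, among the NFAT genes, and 1 higher, among the substrates. Over all tested probe sets the shares were 4.31% lower and 2.6% higher, so these counts do not set the lists apart. The genes named next are those with the smallest p of each list and not called changes.

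Nfatc2, a calcineurin-activated transcription factor, had the smallest p of the NFAT list. On 1381185_at it gave 1136, 733 and 991 in OD and 419, 39.1 and 524 in OS, with no overlap, which put the mean at -2.02 ± 1.53 (SD over 3 rats, limma adjusted p = 0.660). Its other probe set, 1383527_at, differed by -1.34 ± 0.44 (SD, n = 3 rats, limma adjusted p = 0.810), but it was above the limit on 2 of 3 OD and 0 of 3 OS arrays, and in rat 3 neither eye exceeded it. Both Nfatc2 probe sets passed the brightness filter only through OD, with mean log2 values of 9.90 and 9.12 there and 7.87 and 7.78 in OS. Nfatc4, another NFAT factor, was second in the list at 1.62 ± 2.34 (SD, n = 3 rats, limma adjusted p = 0.799), lower in OS in rat 2 and higher in rats 1 and 3. That probe set, 1390573_a_at, passed the filter only through OS, with mean log2 values of 9.25 there and 7.63 in OD. It was above the limit on 1 of 3 OD and 2 of 3 OS arrays. The other Nfatc4 probe set, 1392426_x_at, had a mean of the other sign, -0.98, but was untested and above the limit on 0 arrays.

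Among the other binders, Homer3, a synaptic scaffold that also binds NFAT, differed by 1.66 ± 1.16 (SD, n = 3 rats, limma adjusted p = 0.801), above the limit on 0 of 3 OD and 2 of 3 OS arrays, so the size is uncertain. It passed the brightness filter only through OS, with mean log2 values of 8.99 there and 7.34 in OD. Rcan3, the third RCAN gene, was above the limit on all 6 arrays, at 2592, 2374 and 1111 in OD and 2848, 3225 and 2495 in OS. OS was the higher eye in all 3 rats, with a mean of 0.58 ± 0.52 (SD, n = 3 rats, limma adjusted p = 0.818), and the groups overlapped. Calm2, which encodes the calmodulin that activates the enzyme and was picked for that role after its values were seen, differed by 0.22 ± 1.15 (SD, n = 3 rats, limma adjusted p = 0.951).

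Among the substrates, Mapt, which encodes the microtubule protein tau, differed on 1368137_at by 1.68 ± 2.10 (SD, n = 3 rats, limma adjusted p = 0.602). Its OD value in rat 2 was 158 against 2543 and 616 in rats 1 and 3, and OS gave 2174, 2624 and 1596. The other tested probe sets of Mapt had means of the other sign, -0.38 on 1387071_a_at, which was above the limit on all 6 arrays, and -0.17 on 1368138_at. Marcks, a membrane-bound actin regulator, was lower in OS in 3 of 3 rats on 1375523_at, by -1.37 ± 1.17 (SD, n = 3 rats, limma adjusted p = 0.744), without overlap. Its other tested probe sets 1373432_at, above the limit on all 6 arrays, and 1370949_at differed by -0.04 and -0.29 and were higher in OS in rat 2. The rest were below the brightness filter and untested. Of these, 1370948_a_at was lower in OS in 3 of 3 rats (mean -1.42) but above the limit on 2 of 6 arrays. The others, 1388157_at and 1389838_at, were lower in 2 of 3 rats, above it on 1 and 0 arrays. Dynamin 1 (Dnm1), the GTPase that calcineurin dephosphorylates in vesicle recycling, was also named after its values were seen. It gave 3270, 3019 and 3311 in OD and 2600, 2866 and 2248 in OS, above the limit throughout and without overlap, which put the mean at -0.32 ± 0.24 (SD over 3 rats, limma adjusted p = 0.897).

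**Figure D4:**
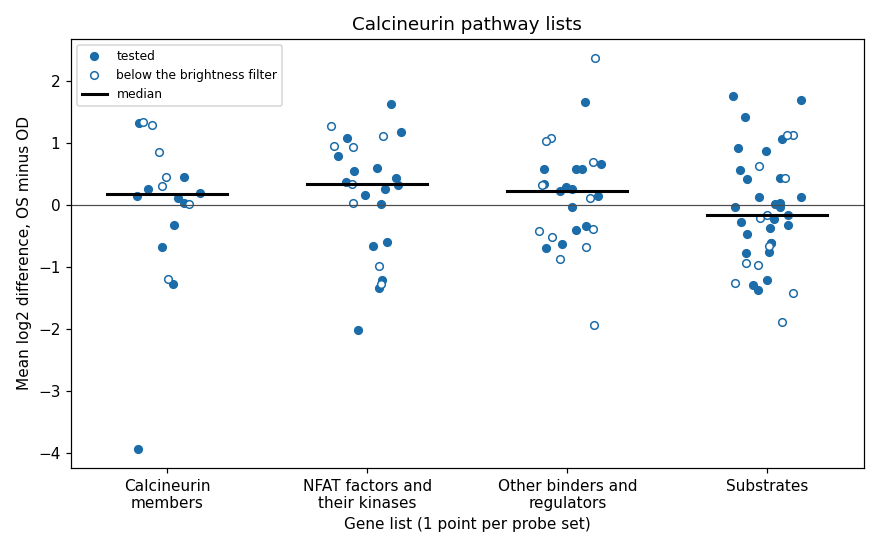
Mean difference between eyes (OS minus OD of log2(intensity + 16)) of each probe set of the calcineurin members and of the 3 pathway lists, open where below the brightness filter, with a bar at each median. The medians were 0.17, 0.33, 0.22 and -0.17, each list spans both directions, and Ppp3cb 1379314_at lies lowest.

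The genes closest in pattern were sought over the 6 arrays for the brightest probe set of each of 3 subunits, as a description only, since the arrays pair within 3 rats. For Ppp3ca 1368277_at these were Lrfn3 and Senp7 (Pearson's r = 0.989 each) and Azin1 (0.979). For Ppp3cb 1375882_at they were Glrx3 (0.986), Cadps and Rab3a (0.983 each), and for Ppp3r1 1391213_at Fntb (0.983), Cysrt1 (0.981) and Sarm1 (0.980). An r of 0.9 or more with the respective subunit was reached by 163, 100 and 96 tested probe sets, or 1.05%, 0.644% and 0.619%. The named genes are the highest of 15521 tested probe sets over only 6 arrays, a selection that gives high r values by itself. Whether any r exceeds what unrelated probe sets reach was not tested, so no gene is shown here to vary with a subunit.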

How the data were processed

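The deposited intensity values, 1 per probe set, came from GCOS, which the submitters' processing notes name without version or settings. A genome build is not stated in the sources used here. Once 2% at each end had been trimmed, the mean was 500.1 on each array, and nothing further was normalized. RNA was amplified linearly before biotin labelling, per the labels' protocols. The 57 Affymetrix control probe sets stayed out of tests, and 20826 of the other 31042 had 1 gene symbol.

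The paired comparison used limma 3.58.1 under R 4.3.3 (log2 of intensity + 16, rat as fixed block, eBayes with intensity trend, two-sided, Benjamini-Hochberg over 15521 probe sets). With 2 residual and 19.4 prior degrees of freedom, p-values rest mostly on pooled variance. On simulated data (20 runs, 200 changed) a mean of 5 unchanged probe sets was called. Eyes pair because they share an animal, as titles and design text give it. Deviations from eye means correlated at 0.109, 0.122 and 0.326 within rats 1 to 3. Between an eye of rat 1 and the other eye of rat 2 they correlated at 0.104 and 0.088. Eyes of rats 1 and 2 were thus hardly more alike within than between these animals.

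Members and gene lists were chosen with earlier results of these data known. All members were named, and of each pathway list the 2 genes with the smallest unadjusted p. Alternatives covered the offset, normalization, filter, block, prior variance, probe sets per gene and each rat left out. Sequences are from RefSeq (GRCr8), with 7 of 8 members matched.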

Additional observations from a re-analysis of the deposited data

How the results depend on the processing

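The count of members past the threshold was 0 under all 13 alternatives, as was that of the pathway lists, and the smallest adjusted p of any member was 0.122, for Ppp3cb 1379314_at with an offset of 64. That probe set was lower in OS under each of the 11 alternatives that tested it alone, by -3.27 to -4.29, with adjusted p from 0.122 to 0.953, the highest without the replicate block. Changes of filter, block, trend or prior variance cannot alter its mean, which stayed at -3.93, so the count of 11 is no measure of robustness. The probe set was not tested from the 75th percentile of brightness up, nor apart from its gene where probe sets were averaged. The count over all probe sets, 2, fell to 0 after quantile normalization, with an offset of 1, with tested probe sets averaged by gene, from the 75th percentile up, without the intensity trend, without the replicate block and when the replicate block was random. Robust prior variance gave 1. An offset of 64 gave 9, as did testing every probe set (9). Leaving out a rat gave 18 to 59. The 5 members with a lower mean in OS became 8 with any 1 rat left out, and 2 of 6 genes when probe sets were averaged. The cause was not tested. The members' median difference ran from 0.02 without rat 3 to 0.23 after quantile normalization. Changes of filter, block, trend or prior variance cannot alter this median either. Its sign was not shared by the rats, whose medians were -0.28, -0.16 and 0.42. The mean changed sign under at least 1 alternative in 10 of 18 members. Signal over background limits Ppp3cc, Rcan1, Rcan2 and the OS values of Ppp3cb 1379314_at, among others.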
